A study of Mus musculus with 6 samples.

Results

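The genes described here encode the non-collagen extracellular matrix of skeletal muscle and the enzymes that process it. They comprise 40 genes chosen by name: 26 interstitial matrix genes, 8 basement membrane genes and 6 proteases and protease inhibitors. All 40 were found by symbol among the 24411 genes of the count table. The samples were soleus (Sol) muscles, a slow-dominant muscle of the calf, from 3 WT and 3 LSD1-mKO mice on the C57BL/6 background. Every mouse was 8 weeks old at the start and was housed singly with a running wheel for 38 days of voluntary wheel running (VWR). Tamoxifen, 75 mg/kg a day, was given to both genotypes on 5 days once the mice had had 3 days with the wheel, and 30 days of recorded running came after it. LSD1-mKO mice carried floxed Lsd1 alleles and a tamoxifen-inducible CreERT2 driven by the human ACTA1 promoter, which is active in differentiating and differentiated muscle cells. WT mice were floxed animals without the CreERT2. The recombinase was thus placed under a promoter of muscle cells. Whole muscle also holds fibroblasts, tendon, vascular and blood cells, and activity of the recombinase in them was not tested here. Before tissue was taken, the wheel was withheld and the mice were fasted for 6 hours. All 6 mice ran, so the comparison is of genotype among trained mice. Nothing in the labels gives the separate litters or days of the animals. Sequencing of polyA RNA gave 8940206 to 10989846 estimated counts in the WT mice and 10984664 to 13798059 in the LSD1-mKO mice.

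As background, the matrix around muscle fibers has an interstitial part and a basement membrane. The interstitial part lies between fibers and in tendon, and holds fibrillar collagen with fibronectin, periostin, thrombospondins, tenascins, small leucine-rich proteoglycans, and elastin with its microfibrils. Fibroblasts of the muscle connective tissue and tendon are its main source. The basement membrane wraps each fiber and each capillary. It is built of laminins, nidogens, perlecan and type IV collagen, and muscle fibers, endothelial cells and Schwann cells make several of its parts. Matrix metalloproteinases (MMP) degrade matrix proteins, and tissue inhibitors of metalloproteinases (TIMP) block them. Matrix genes respond to mechanical load, to injury and to TGF-beta signalling.

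Kdm1a, the gene of LSD1 (GRCm38 chr4:136550540-136602723, minus strand), was read first as a check of the labels. In CPM, read counts scaled to the size of each library, it was at 40.5, 38.2 and 33.6 in WT mice, in replicate order, against 14.6, 16.6 and 16.6 in LSD1-mKO mice. Every LSD1-mKO mouse was below every WT mouse. The log2 fold change of LSD1-mKO over WT was -1.23 ± 0.11 (SE, n = 3 mice a genotype; edgeR, adjusted p = 0.016). Kdm1a was the only gene called lower, and its call was lost without WT replicate 2 or any 1 of the LSD1-mKO mice (adjusted p = 0.111 to 0.209) and with the replicate number as a block (adjusted p = 0.299). Its log2 fold change stayed between -1.30 and -1.17 with any 1 mouse left out. The soleus label was read against Myh7, the slow myosin heavy chain, which lay between 11233 and 15151 CPM in all 6 mice.

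Across the matrix genes, the values were lower on average in LSD1-mKO mice, but the spread between mice of 1 genotype was wider than the genotype difference. Of the 40 genes, 39 had enough counts to be tested. The exception was Mmp9. The log2 fold change was below 0 for 38 of the 39, with a median of -0.31, beside 54.8% of all genes below 0 and a median of -0.02 over the 12828 genes tested. None of the 39 passed an adjusted p of 0.05 (edgeR, lowest adjusted p = 0.729), where 2 of 12828 genes (0.0156%) did. By DESeq2 none passed either, with a lowest adjusted p of 0.574. At an unadjusted p of 0.05, 2 matrix genes were lower, Postn and Sparc, in edgeR and in DESeq2, and none was higher. Of all genes, 369 (2.88%) were lower and 452 (3.52%) were higher by that rule in edgeR, so 2 of 39 stands near the background. In DESeq2, 228 of all genes (1.78%) were lower by it. The values of WT and LSD1-mKO mice overlapped for all 39, whereas 783 of 12828 genes (6.1%) did not overlap with LSD1-mKO lower and 851 (6.63%) with LSD1-mKO higher. For each of the 39 the range of the WT mice exceeded the difference between the genotype means, as for 85.2% of all genes. Because the RNA came from whole muscle, fewer matrix-producing cells and less RNA per cell cannot be told apart.

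**Figure D1:**
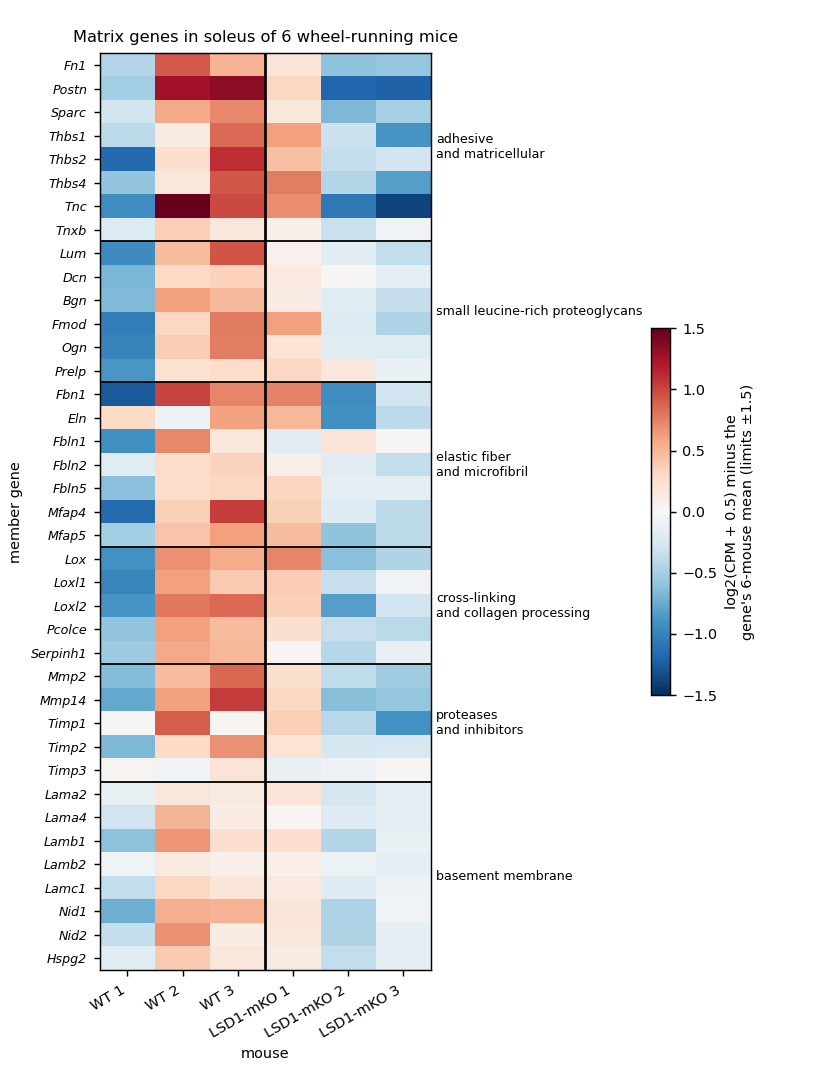
Each row is 1 of the 39 tested matrix genes and each column 1 mouse, with WT to the left of the vertical line and LSD1-mKO to the right. Color gives log2(CPM + 0.5) minus the mean of that gene over the 6 mice, red above and blue below. WT replicate 1 is blue in nearly every row and LSD1-mKO replicate 1 is red in nearly every row.

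The same mice were high and low for nearly every gene. WT replicate 1 was below both other WT mice for 37 of 39 genes, beside 39.9% of all genes, with Eln and Timp3 as the exceptions. It was the lowest of all 6 mice for 23 genes. LSD1-mKO replicate 1 was above both other LSD1-mKO mice for 37 of 39 genes, beside 36.2% of all genes, and here Fbln1 and Timp3 were the exceptions. WT replicate 1 was below LSD1-mKO replicate 1 for 38 of 39 genes, beside 50.1% of all genes. Either WT replicate 2 or WT replicate 3 was the highest mouse for 35 genes (17 and 18), and LSD1-mKO replicate 1 for the other 4. For 23 of 39 genes every LSD1-mKO mouse was below WT replicates 2 and 3, beside 17.8% of all genes. For Kdm1a, in contrast, WT replicate 1 was with the WT mice and LSD1-mKO replicate 1 with the LSD1-mKO mice. Over all genes, each of these 2 libraries was also nearest to a mouse of the other genotype. As chi-square per gene between libraries, WT replicate 1 was at 12.1 from LSD1-mKO replicate 3 and at 20.5 and 18.1 from WT replicates 2 and 3. LSD1-mKO replicate 1 was at 11.4 from WT replicate 3 and at 16.7 and 13.7 from LSD1-mKO replicates 2 and 3.

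The genotype difference therefore depended on single mice. Without WT replicate 1, 26 of 39 matrix genes were lower at an unadjusted p of 0.05, beside 7.98% of all genes by the same rule, and the median log2 fold change was -0.60. Of these 26, 17 were interstitial, 6 were basement membrane and 3 were protease or inhibitor genes. Without LSD1-mKO replicate 1, the count was 11, beside 3.87% of all genes, with a median of -0.52. Without WT replicate 2, WT replicate 3, LSD1-mKO replicate 2 or LSD1-mKO replicate 3, no matrix gene was called, and the median lay between -0.24 and -0.15. Of all genes, 2.71%, 1.8%, 2.22% and 1.7% were lower by the same rule in those fits, so 0 of 39 stands near the background. No matrix gene passed an adjusted p of 0.05 in any fit with 1 mouse left out, and the lowest was 0.139, for Lum without WT replicate 1. No label sets WT replicate 1 or LSD1-mKO replicate 1 apart, and the values with all 6 mice are the ones given below.

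WT replicate 1 had the fewest estimated counts, 8940206, and LSD1-mKO replicate 2, also low in matrix genes, had the most, 13798059. The summed CPM of 8 muscle fiber genes was 100844, 76439 and 86528 in WT and 90818, 85235 and 90811 in LSD1-mKO mice, in replicate order. It was highest in WT replicate 1, where most matrix genes were lowest. The part of depth and of muscle fiber RNA in the result was not tested.

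Promoters of 25 of the 40 genes were in the RefSeq table used here (GRCm38.p6), as 29 windows of 250 bases before and 50 after the start of transcription. The letters TATAAA, the core of the TATA box, stood on the gene's strand in 4 windows (13.8%), beside 8.32% of all 32851 windows. These belonged to Postn, Ogn and Tnc, the last with 1 site seen in both of its overlapping windows. The letters stood 26 bases before the start in Postn, 227 in Ogn, and 205 and 126 before the starts of the Tnc windows. Whether any of these sites acts as a TATA box was not tested. The AP-1 letters TGANTCA, which read alike on both strands, stood in 1 window (3.45%), that of Tnxb, 55 bases before the start, beside 7.81% of all windows. The promoters shown are those of Postn and Sparc, with the lowest p-values, and that of Lamb2, which varied least between mice in CPM. Capitals mark TATAAA, found 26 bases before the start in Postn. Neither motif was found in the windows of Sparc or Lamb2. Postn has 2 windows in the table, and the one with TATAAA is shown. The Sparc window belongs to a start at 55420080, which is also that of 1 of the 9 GENCODE transcripts and lies 3103 bases inside the gene's full span, whose outermost start is that of another transcript. The Lamb2 start lies 126 bases inside its span.
Postn promoter, chr3:54360857-54361156, plus strand: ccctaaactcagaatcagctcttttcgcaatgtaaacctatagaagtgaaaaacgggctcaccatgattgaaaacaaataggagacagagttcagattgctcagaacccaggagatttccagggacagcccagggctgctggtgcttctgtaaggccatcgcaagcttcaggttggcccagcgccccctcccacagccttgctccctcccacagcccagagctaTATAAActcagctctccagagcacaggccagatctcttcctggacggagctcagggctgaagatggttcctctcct
Sparc promoter, chr11:55420031-55420330, minus strand: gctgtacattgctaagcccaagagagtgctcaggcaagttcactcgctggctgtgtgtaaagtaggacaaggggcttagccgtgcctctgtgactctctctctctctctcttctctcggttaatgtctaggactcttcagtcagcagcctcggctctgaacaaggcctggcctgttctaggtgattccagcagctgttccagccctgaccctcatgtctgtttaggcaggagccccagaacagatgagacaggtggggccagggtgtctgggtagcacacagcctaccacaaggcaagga
Lamb2 promoter, chr9:108479612-108479911, plus strand: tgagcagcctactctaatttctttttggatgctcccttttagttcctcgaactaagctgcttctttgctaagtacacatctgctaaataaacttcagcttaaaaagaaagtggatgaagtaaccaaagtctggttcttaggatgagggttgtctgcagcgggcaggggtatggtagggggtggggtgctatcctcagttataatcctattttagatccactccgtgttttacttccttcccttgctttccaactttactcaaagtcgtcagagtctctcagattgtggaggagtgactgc

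The adhesive and matricellular genes held the largest single differences, in Postn and Tnc. They are Fn1, Postn, Sparc, Thbs1, Thbs2, Thbs4, Tnc and Tnxb, whose products bind cells to matrix or tune that contact. All 8 were lower on average in LSD1-mKO mice, with a median log2 fold change of -0.52 (-0.96 without LSD1-mKO replicate 1 and -0.35 without WT replicate 3). Postn encodes periostin, a secreted protein of loaded and healing connective tissue (chr3:54361109-54391037, plus strand). Postn was at 114, 388 and 413 CPM in WT and at 202, 70.8 and 69.8 CPM in LSD1-mKO mice, where values always follow the order of the replicates. The mean was 305 ± 166 CPM in WT and 114 ± 76.1 CPM in LSD1-mKO mice (SD, n = 3). WT replicates 2 and 3 were above every LSD1-mKO mouse, but WT replicate 1 was below LSD1-mKO replicate 1, so the genotypes overlapped. The log2 fold change was -1.42 ± 0.54 (SE; edgeR, p = 0.0298, adjusted p = 0.729), and the exact permutation test gave p = 0.2, where 0.1 is the smallest value that 3 against 3 mice allow. With 1 mouse left out at a time it ran from -2.12 to -1.14.

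Sparc encodes osteonectin, a collagen-binding glycoprotein (chr11:55394500-55423183, minus strand), and was the most abundant of these 8 genes with a mean of 789 TPM, a level scaled for library size and gene length. Its values were 627, 1126 and 1251 CPM in WT and 852, 474 and 536 CPM in LSD1-mKO mice. The mean was 1001 ± 330 CPM in WT and 621 ± 203 CPM in LSD1-mKO mice (SD, n = 3). The order of the mice was that of Postn in WT, and LSD1-mKO replicate 1 again lay above WT replicate 1. The log2 fold change was -0.69 ± 0.29 (SE; edgeR, p = 0.0432, adjusted p = 0.766; exact permutation p = 0.2).

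Tnc, encoding tenascin-C of tendon and of injured muscle, had the largest ratio between mice, 9.3 between WT replicate 2 (36.4 CPM) and LSD1-mKO replicate 3 (3.91 CPM). WT replicate 1, at 5.55 CPM, was close to the lowest LSD1-mKO mice. Its log2 fold change was -1.25 ± 0.69 (edgeR, adjusted p = 0.777), and it was -2.27 without LSD1-mKO replicate 1 and -0.64 without WT replicate 2. Fn1, encoding fibronectin, was at 192, 493 and 375 CPM in WT and 299, 171 and 174 CPM in LSD1-mKO mice, with a log2 fold change of -0.72 ± 0.34 (edgeR, adjusted p = 0.766), or -1.04 and -0.40 without the same mice. Tnc and Fn1 had the same 3 mice at the top, WT replicates 2 and 3 and LSD1-mKO replicate 1. The thrombospondins Thbs1, Thbs2 and Thbs4 differed less by genotype, with log2 fold changes of -0.35, -0.36 and -0.30. Tnxb, encoding the tenascin of loose connective tissue, varied least of the 8, by a ratio of 1.61 between the highest and lowest mouse.

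**Figure D2:**
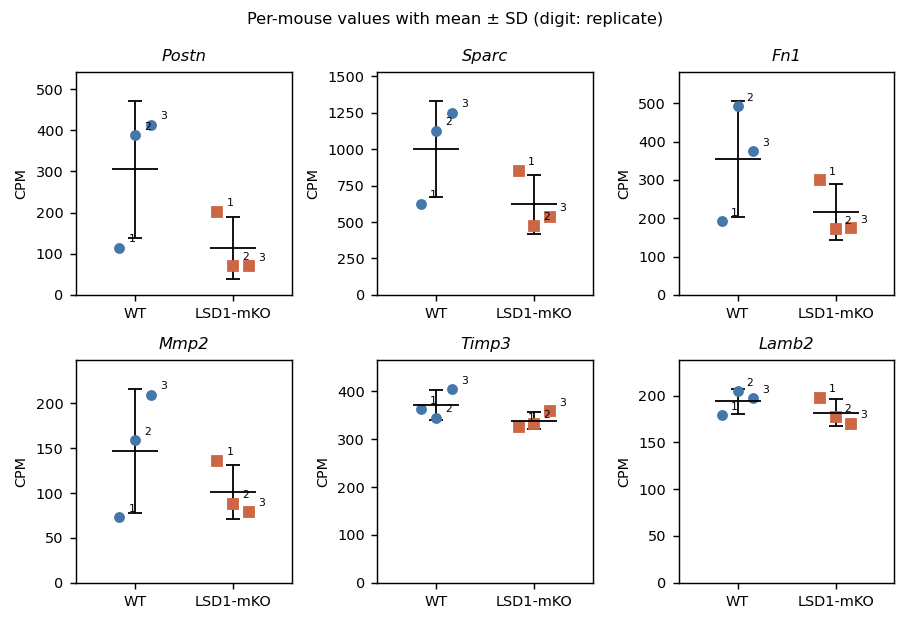
CPM of 6 matrix genes in each mouse, with circles for WT, squares for LSD1-mKO, digits for the replicate, and black lines for the mean ± SD (n = 3). In Postn, Sparc, Fn1 and Mmp2, WT replicate 1 lies below LSD1-mKO replicate 1. Timp3 and Lamb2 stay within ratios of 1.24 and 1.2 between the highest and lowest mouse.

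The small leucine-rich proteoglycans bind collagen fibrils and set their diameter and spacing. Dcn, encoding decorin (chr10:97479609-97518143, plus strand), had the highest mean level of all 40 genes, 830 TPM. Dcn was at 396, 780 and 812 CPM in WT and 707, 644 and 582 CPM in LSD1-mKO mice. The mean was 663 ± 231 CPM in WT and 644 ± 62.6 CPM in LSD1-mKO mice (SD, n = 3). WT replicate 1 stood apart below all 5 other mice, and LSD1-mKO mice lay between it and the other WT mice. The log2 fold change was -0.042 ± 0.24 (edgeR, adjusted p = 0.979), and its sign changed with the tool and with the mouse left out. Lum, Bgn, Fmod and Ogn, encoding lumican, biglycan, fibromodulin and osteoglycin, had log2 fold changes of -0.51, -0.38, -0.14 and -0.26. With 1 mouse left out, Lum ran from -0.88 without WT replicate 1 to -0.10 without WT replicate 3, and Bgn from -0.68 without WT replicate 1 to -0.15 without WT replicate 2. Prelp was the only 1 of the 39 genes with a value above 0, 0.17 ± 0.27 (edgeR, adjusted p = 0.924). WT replicate 1 was the lowest mouse for all 6 proteoglycans. Their median log2 fold change was -0.20, and it turned to 0.13 without WT replicate 3 and was -0.56 without WT replicate 1.

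Of the 6 proteoglycan genes, 5 lie in 3 clusters of the genome with related genes. Lum (chr10:97565128-97572703) and Dcn neighbor Kera (chr10:97606879-97613692), which encodes keratocan. Fmod (chr1:134037254-134048277) and Prelp (chr1:133910304-133921414) lie together. Ogn (chr13:49608046-49624501) lies beside Omd (chr13:49582462-49592822) and Aspn (chr13:49544443-49567565), encoding osteomodulin and asporin. Kera was at 5.55, 27.9 and 33.4 CPM in WT and 27.4, 12.6 and 15.1 CPM in LSD1-mKO mice. Aspn was at 73.2, 146 and 221 CPM in WT and 111, 89.1 and 96.8 CPM in LSD1-mKO mice. Omd was low, at 2.05, 3.24 and 14.3 CPM in WT and 3.77, 2.68 and 2.05 CPM in LSD1-mKO mice. WT replicate 1 was the lowest mouse for Kera and Aspn, and WT replicate 3 stood far above all others for Omd.

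The elastic fiber and microfibril genes were Fbn1, Eln, Fbln1, Fbln2, Fbln5, Mfap4 and Mfap5, and all 7 were lower on average, with a median log2 fold change of -0.37 (-0.64 without LSD1-mKO replicate 1 and -0.15 without WT replicate 3). Fbln2, encoding fibulin-2 of microfibrils and basement membrane (chr6:91212455-91272540, plus strand), had the highest mean level, 81.5 TPM. Fbln2 was at 152, 209 and 219 CPM in WT and 184, 154 and 134 CPM in LSD1-mKO mice. The means were 193 ± 36.6 and 157 ± 25.1 CPM (SD, n = 3), with a log2 fold change of -0.30 ± 0.16 (edgeR, adjusted p = 0.777; exact permutation p = 0.3). WT replicates 2 and 3 were above every LSD1-mKO mouse, and WT replicate 1 was below LSD1-mKO replicates 1 and 2. The value was -0.45 without WT replicate 1 and -0.20 without WT replicate 3. Fbn1, encoding fibrillin-1, the backbone of microfibrils, had a ratio of 4.89 between the highest and lowest mouse, both of them WT. Eln, encoding elastin, was at 55.7, 42.8 and 68.9 CPM in WT and 64, 23.7 and 34.2 CPM in LSD1-mKO mice. In Eln alone of the 26 interstitial genes WT replicate 1 was not the lowest WT mouse.

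The cross-linking and collagen processing genes were Lox, Loxl1 and Loxl2, whose products cross-link collagen and elastin, Pcolce, an enhancer of procollagen cleavage, and Serpinh1, the collagen chaperone HSP47. All 5 were lower on average, with a median log2 fold change of -0.40 (-0.69 without WT replicate 1 and -0.18 without WT replicate 2). Serpinh1 (chr7:99345376-99353239, minus strand) had the highest mean level, 89 TPM. Serpinh1 was at 59, 129 and 122 CPM in WT and 88.2, 64 and 80 CPM in LSD1-mKO mice. The means were 103 ± 38.6 and 77.4 ± 12.3 CPM (SD, n = 3), with a log2 fold change of -0.42 ± 0.27 (edgeR, adjusted p = 0.781; exact permutation p = 0.4). All 3 LSD1-mKO mice lay above WT replicate 1 and below WT replicates 2 and 3, and the value was -0.70 without WT replicate 1 and -0.23 without WT replicate 2. Loxl2 had the largest difference of the 5, -0.63 ± 0.44 (edgeR, adjusted p = 0.805), which became -1.0 without WT replicate 1 and -0.38 without WT replicate 3. Lox was highest in LSD1-mKO replicate 1, at 41.7 CPM.

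Among the proteases and inhibitors, Mmp2, Mmp14, Timp1 and Timp2 had the pattern of the interstitial genes or part of it, while Timp3 was nearly even between mice. The median log2 fold change of the 5 tested genes was -0.55 (-0.82 without WT replicate 1 and -0.20 without WT replicate 3). Mmp2, encoding gelatinase A (chr8:92827291-92853420, plus strand), was at 73.1, 159 and 210 CPM in WT and 136, 88.2 and 79.4 CPM in LSD1-mKO mice. The means were 147 ± 69.2 and 101 ± 30.4 CPM (SD, n = 3), with a log2 fold change of -0.55 ± 0.35 (edgeR, adjusted p = 0.782; exact permutation p = 0.4). WT replicate 1 was the lowest of the 6 mice and WT replicate 3 the highest. Without WT replicate 1 the log2 fold change was -0.86, and without WT replicate 3 it was -0.20. Mmp14, encoding the membrane-bound protease that activates MMP-2 (chr14:54431612-54445364, plus strand), was at 10.1, 27.2 and 36.7 CPM in WT and 21.9, 11.1 and 11.6 CPM in LSD1-mKO mice. The means were 24.7 ± 13.5 and 14.9 ± 6.07 CPM, with a log2 fold change of -0.74 ± 0.43 (edgeR, adjusted p = 0.777; exact permutation p = 0.4). Its mice stood in nearly the order of Mmp2, and the value was -1.13 without LSD1-mKO replicate 1 and -0.34 without WT replicate 3. Mmp9, encoding gelatinase B of leukocytes (chr2:164940780-164955850, plus strand), was near the limit of detection at 0.482, 0.99 and 0.622 CPM in WT and 0.814, 0.29 and 0.838 CPM in LSD1-mKO mice. That was 4 to 11 counts a mouse, and a genotype difference was not detectable at this depth.

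Timp1, an inhibitor often induced by inflammation (chrX:20870166-20874735, plus strand), was low, at 3.98, 7.83 and 4 CPM in WT and 5.18, 2.82 and 1.86 CPM in LSD1-mKO mice. The means were 5.27 ± 2.22 and 3.29 ± 1.71 CPM (SD, n = 3), with a log2 fold change of -0.67 ± 0.41 (edgeR, adjusted p = 0.781; exact permutation p = 0.4). WT replicate 2 was the highest mouse here and WT replicates 1 and 3 lay close together. The value was -1.16 without LSD1-mKO replicate 1 and -0.26 without WT replicate 2. Timp2, which both inhibits MMP-2 and takes part in its activation (chr11:118301069-118355740, minus strand), was at 102, 201 and 264 CPM in WT and 188, 136 and 138 CPM in LSD1-mKO mice. The means were 189 ± 81.9 and 154 ± 29.4 CPM, with a log2 fold change of -0.30 ± 0.30 (edgeR, adjusted p = 0.876; exact permutation p = 0.6). The order of its mice was that of Mmp2, apart from LSD1-mKO replicates 2 and 3, which were nearly equal.

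Timp3, the matrix-bound inhibitor (chr10:86300372-86349506, plus strand), had the highest mean level of the 6, 167 TPM. Timp3 was at 363, 345 and 405 CPM in WT and 326, 332 and 359 CPM in LSD1-mKO mice. The means were 371 ± 30.9 and 339 ± 17.5 CPM (SD, n = 3), with a log2 fold change of -0.13 ± 0.10 (edgeR, adjusted p = 0.82; exact permutation p = 0.2), which was -0.18 without WT replicate 2 and -0.062 without WT replicate 3. In CPM, WT replicate 1 was not the lowest WT mouse and LSD1-mKO replicate 1 was the lowest of all. In TPM, which is not TMM-scaled, WT replicate 1 was the lowest WT mouse (157 TPM, against 174 and 193), and LSD1-mKO replicate 1 was again the lowest of all (151 TPM). Exons of Timp3 share 21.3% of their bases with Syn3 on the opposite strand, and whether counting used strand is not given in the sources used here, but Syn3 itself was at 1.57 to 2.74 CPM in all mice. Since Timp3 stayed even while Mmp2 and Mmp14 varied, the summed TPM of the 3 inhibitors was 4.03, 2.25 and 2.03 times that of the 3 proteases in WT and 2.45, 3.43 and 3.89 times in LSD1-mKO mice. The genotypes overlapped in this ratio too, with WT replicate 1 at the highest value.

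The basement membrane genes varied less between mice than the other classes, and none stood out by genotype. Laminin chains Lama2, Lama4, Lamb1, Lamb2 and Lamc1, the nidogens Nid1 and Nid2, which link laminin to collagen, and Hspg2, encoding perlecan, had log2 fold changes from -0.34 for Nid2 to -0.092 for Lamb2, with a median of -0.26 (-0.41 without WT replicate 1 and -0.036 without WT replicate 2). All 8 were below 0 and none passed an unadjusted p of 0.05 (edgeR, lowest adjusted p = 0.781). Lamb2, a laminin beta chain of the neuromuscular junction (chr9:108479736-108490530, plus strand), had the highest mean level, 74.1 TPM. Lamb2 was at 179, 205 and 197 CPM in WT and 198, 177 and 170 CPM in LSD1-mKO mice. The means were 194 ± 13.2 and 182 ± 14.6 CPM (SD, n = 3), with a log2 fold change of -0.092 ± 0.10 (edgeR, adjusted p = 0.879; exact permutation p = 0.3). The 6 mice lay close together, and LSD1-mKO replicate 1 was at the level of the WT mice. The Lamb2 value was -0.16 without LSD1-mKO replicate 1 and -0.045 without LSD1-mKO replicate 3. Lama2, the laminin alpha chain of the muscle fiber surface, varied by a ratio of 1.37 between the highest and lowest mouse. Lamb1, Nid1 and Nid2 varied more, by ratios of 2.45, 2.44 and 2.26.

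**Figure D3:**
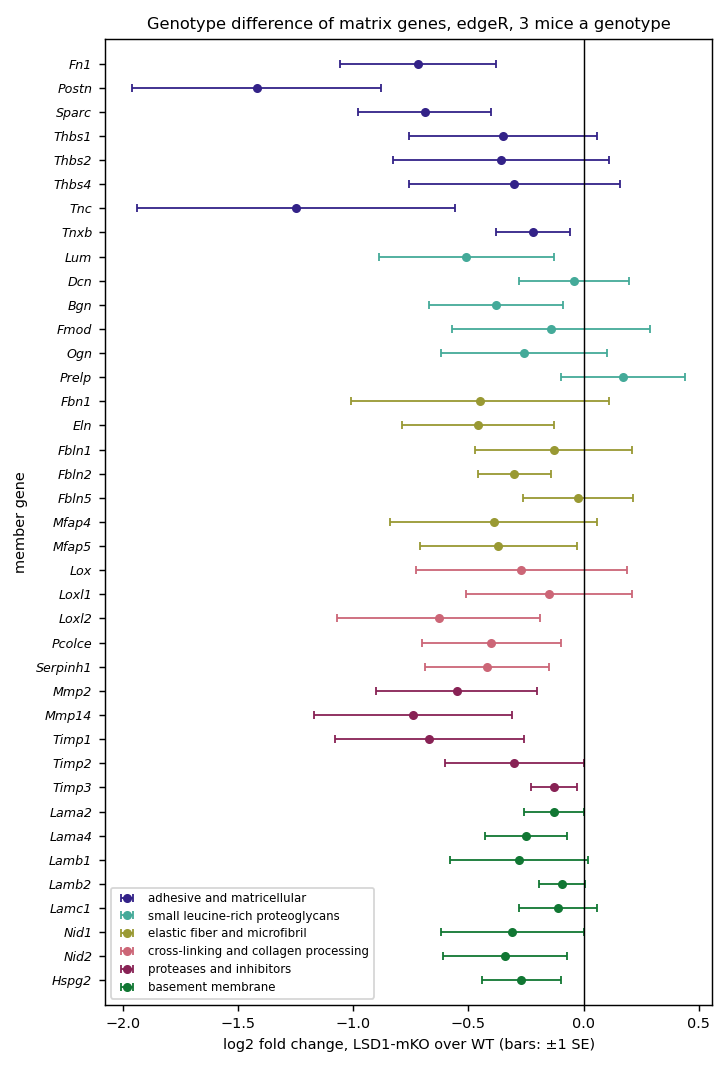
Points give the log2 fold change of LSD1-mKO over WT for the 39 tested matrix genes, colored by role, with bars of ±1 SE from edgeR. Nearly all points lie left of 0, between -1.42 for Postn and 0.17 for Prelp, and the basement membrane genes lie between -0.34 and -0.092.

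Compared sample by sample, the 3 classes moved through the same mice by different amounts. The summed TPM of the interstitial genes was 1873, 4476 and 4748 in WT and 3571, 2398 and 2306 in LSD1-mKO mice. That of the basement membrane genes was 230, 429 and 369 in WT and 337, 256 and 286 in LSD1-mKO mice. That of the proteases and inhibitors was 278, 467 and 544 in WT and 388, 315 and 321 in LSD1-mKO mice. In all 3 classes WT replicate 1 was the lowest mouse by this measure and WT replicates 2 and 3 were the highest. By summed CPM, which is TMM-scaled, WT replicate 1 (892 CPM) and LSD1-mKO replicate 2 (891 CPM) were level for the basement membrane genes. The median ratio between the highest and lowest mouse was 3.17 for interstitial genes, 2.87 for proteases and inhibitors and 1.73 for basement membrane genes, beside 1.4 for all genes tested. Interstitial genes summed to 8.14, 10.4 and 12.9 times the basement membrane genes in WT and to 10.6, 9.38 and 8.07 times in LSD1-mKO mice. Within the interstitial class, the sums of the adhesive genes spanned 761 to 2161 TPM and those of the proteoglycans 736 to 1925 TPM. The adhesive sums of LSD1-mKO replicates 2 and 3 (761 and 782 TPM) were below WT replicate 1 (852 TPM), whereas their proteoglycan sums (1302 and 1165 TPM) were above it (736 TPM). Dcn and Sparc together made up 39.4 to 42.9% of the summed TPM of the 40 genes in every mouse.

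**Figure D4:**
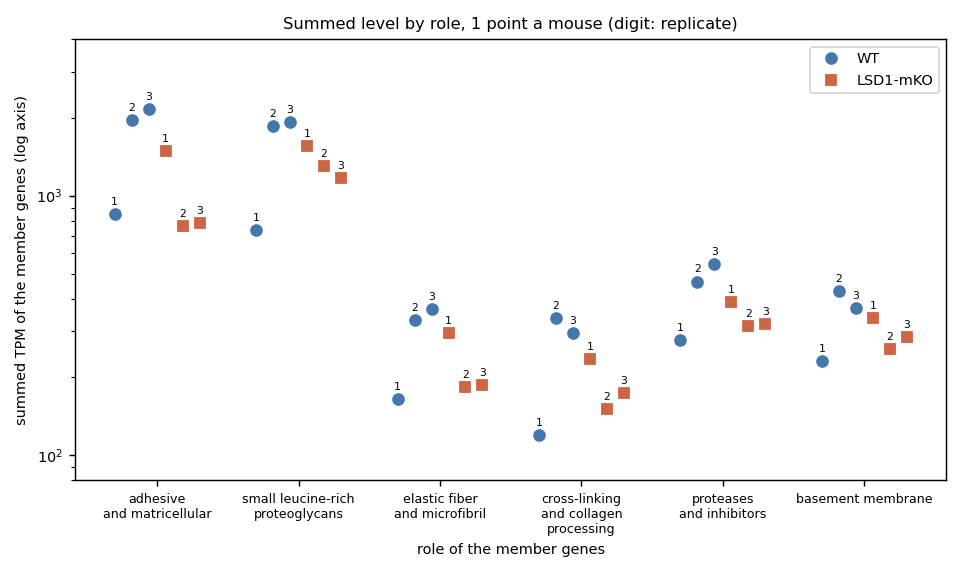
Summed TPM of the member genes of each role on a log axis, with 1 point a mouse, circles for WT, squares for LSD1-mKO and digits for the replicate. In every role WT replicates 2 and 3 are at the top, WT replicate 1 is far below them, and LSD1-mKO replicate 1 is above the other LSD1-mKO mice.

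Other genes of the same pathways were read from wider lists, and none passed an adjusted p of 0.05 in edgeR. Of 34 further interstitial genes tested, 32 were below 0 and 2 above, with a median log2 fold change of -0.33. At an unadjusted p of 0.05, 2 of the 34 were lower, Igfbp7 and Ctgf, beside 2.88% of all genes. Igfbp7, a vascular matrix protein, was at 154, 208 and 188 CPM in WT and 167, 129 and 125 CPM in LSD1-mKO mice. Its genotypes overlapped, with a log2 fold change of -0.39 ± 0.15 (edgeR, adjusted p = 0.729), and Ctgf, the connective tissue growth factor, of -0.48 ± 0.20 (adjusted p = 0.766). Ctgf did not have the pattern of the matrix genes: it was at 272, 157 and 276 CPM in WT and 168, 159 and 179 CPM in LSD1-mKO mice. The most abundant was Sparcl1, a relative of Sparc, at 363, 543 and 516 CPM in WT and 478, 427 and 392 CPM in LSD1-mKO mice. Of 18 further basement membrane genes, 14 were below 0 and 4 above, with a median of -0.20, and none passed an unadjusted p of 0.05. Npnt (nephronectin) and Tinagl1 had the lowest p-values, with log2 fold changes of 0.30 and -0.35, and Col4a1, the most abundant, of -0.27 ± 0.27.

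Of 38 further proteases, inhibitors and matrix enzymes tested, 34 were below 0 and 4 above, with a median of -0.23. At an unadjusted p of 0.05, 5 of the 38 were lower, beside 2.88% of all genes: Adamts10, Loxl3, Pcolce2, Plod1 and Tll1. In 2 of them, Adamts10 and Plod1, the genotypes did not overlap, with LSD1-mKO lower, beside 6.1% of all genes. Adamts10, a metalloprotease that binds fibrillin microfibrils, was at 18.7, 19.9 and 19.6 CPM in WT and 17, 13.5 and 11.8 CPM in LSD1-mKO mice. Its log2 fold change was -0.45 ± 0.14 (edgeR, p = 0.013, adjusted p = 0.642; exact permutation p = 0.1). Plod1, a collagen lysyl hydroxylase, was at 64, 81.3 and 72.6 CPM in WT and 63.2, 61.6 and 60.4 CPM in LSD1-mKO mice, so WT replicate 1 lay just above the LSD1-mKO mice. The log2 fold changes of Plod1, Loxl3 and Pcolce2 were -0.24, -0.47 and -0.49 (edgeR, adjusted p = 0.766 for each). Tll1, a procollagen proteinase, was at or below 2.67 CPM in every mouse, with a log2 fold change of -1.13 ± 0.46 (edgeR, adjusted p = 0.745). Serpinf1, the most abundant of these genes by mean TPM, had a log2 fold change of -0.30 ± 0.33. Among 24 matrix receptors and TGF-beta pathway genes, 18 were below 0 and 6 above, with a median of -0.13. At an unadjusted p of 0.05, 1 of the 24 was higher, near the 3.52% of all genes, and none was lower. This was Itgav, the integrin alpha-V chain that binds fibronectin and latent TGF-beta, at 49.5, 51.9 and 52.3 CPM in WT and 62.4, 62.5 and 73.9 CPM in LSD1-mKO mice. The genotypes did not overlap, as for 6.63% of all genes in this direction, with a log2 fold change of 0.37 ± 0.095 (edgeR, p = 0.00419, adjusted p = 0.534; exact permutation p = 0.1). Ddr1, a collagen receptor, did not overlap in the other direction, as for 6.1% of all genes. Its log2 fold change was -0.14 ± 0.086 (edgeR, adjusted p = 0.781). Sdc3 had the next lowest p-value, with a log2 fold change of -0.31 ± 0.15, and Itgb1, the most abundant, was at -0.085 ± 0.11.

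The 8 fibrillar and type VI collagen genes read alongside were lower in the same mice, with summed values of 1113, 3174 and 4104 CPM in WT and 2465, 858 and 1104 CPM in LSD1-mKO mice. Their median log2 fold change was -0.80 and none passed an unadjusted p of 0.05 (edgeR, lowest adjusted p = 0.766).

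Markers of the cell types that whole soleus can hold were read mouse by mouse. As a score, the median over each list of log2(CPM + 0.5) minus the mean of the gene over the 6 mice was taken. For the 39 matrix genes this score was -0.61, 0.47 and 0.52 in WT and 0.24, -0.35 and -0.29 in LSD1-mKO mice. Fibroblast and fibro-adipogenic markers (11 of 12 tested, 10 below 0, and Tcf21 left out at 1 count in all) had a score of -0.51, 0.32 and 0.35 in WT and 0.17, -0.26 and -0.069 in LSD1-mKO mice. Their summed level was 352, 631 and 656 CPM in WT and 550, 408 and 474 CPM in LSD1-mKO mice, with Ly6a the most abundant and Pi16 and Cd248 at the lowest p-values (0.123 and 0.257 in edgeR). Pdgfra, the receptor that defines fibro-adipogenic cells, was at 22.5, 55.9 and 68 CPM in WT and 55.3, 38.6 and 39.6 CPM in LSD1-mKO mice. Pdgfra had WT replicates 2 and 3 and LSD1-mKO replicate 1 at or near the top, as the matrix genes did. Ly6a did not have that pattern, at 78.7, 83.7 and 99.1 CPM in WT and 90.4, 71.1 and 92.2 CPM in LSD1-mKO mice. None of the 40 genes is in a marker list, and Dpt, Htra3 and Comp are in a marker list and in a wider matrix list.

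Tendon markers (8 tested, 6 below 0) had scores of -0.61, 0.24 and 0.82 in WT and 0.39, -0.40 and -0.64 in LSD1-mKO mice, and summed to 100, 209 and 289 CPM in WT and 217, 168 and 107 CPM in LSD1-mKO mice. Chad was the most abundant, and Clec11a and Tnmd had the lowest p-values. Tnmd, encoding tenomodulin of tendon cells, was at 18.9, 47.9 and 59.8 CPM in WT and 37.6, 18.2 and 18.5 CPM in LSD1-mKO mice, while Scx, the tendon transcription factor, was at 17, 17.2 and 16.3 CPM in WT and 28.1, 12.7 and 16.3 CPM in LSD1-mKO mice. Tnmd followed the matrix genes in every mouse, and Scx did not in WT. Macrophage and leukocyte markers (10 of 12 tested, all 10 below 0) had scores of -0.72, 0.95 and 0.54 in WT and 0.17, -0.69 and -0.15 in LSD1-mKO mice. They summed to 187, 577 and 473 CPM in WT and 339, 187 and 275 CPM in LSD1-mKO mice, with Lyz2 the most abundant and Cd74 and C1qa at the lowest p-values. Leukocyte markers were thus also low in WT replicate 1.

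The other lists followed the matrix genes less or not at all. Endothelial markers (10 tested, 7 below 0) had scores of -0.14, 0.32 and 0.056 in WT and 0.081, -0.16 and -0.069 in LSD1-mKO mice. These scores had the sign of the matrix score in every mouse but were nearer to zero. The endothelial markers summed to 692, 953 and 814 CPM in WT and 844, 704 and 734 CPM in LSD1-mKO mice. Pecam1 was the most abundant by mean TPM, and Esam and Tie1 had the lowest p-values. Smooth muscle and pericyte markers (10 tested, 5 below 0) had scores from -0.11 to 0.18, and summed to between 931 and 1074 CPM. Rgs5 was the most abundant by mean TPM, and Abcc9 and Mcam had the lowest p-values. Abcc9 was the 1 gene of these 10 without overlap, higher in every LSD1-mKO mouse, beside 6.63% of all genes in this direction (log2 fold change 0.18 ± 0.085, edgeR, adjusted p = 0.766). Schwann cell markers (8 tested, 7 below 0, led by Pmp22, with Mbp at the lowest p-value) had scores from -0.12 to 0.18 and summed to between 186 and 219 CPM.

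Adipocyte markers (6 tested, 3 below 0, led by Cfd, with Retn and Adipoq at the lowest p-values) had scores from -0.29 to 0.35 and summed to between 128 and 201 CPM. Satellite cell markers (4 of 5 tested, 1 below 0, led by Cdh15, with Vcam1 and Myf5 at the lowest p-values) had scores from -0.23 to 0.35 and summed to between 43.8 and 62.1 CPM. Red blood cell markers (5 tested, 4 below 0) were high in WT replicate 2, with a score of 1.08, and had scores from -0.36 to 0.51 in the other mice. Hba-a2 was the most abundant, and 1 of them, Hba-a1, passed an unadjusted p of 0.05 as higher, beside 3.52% of all genes, but Hba-a1 and Hba-a2 are near-identical copies whose reads may be split uncertainly. Slow fiber markers (8 tested, 1 below 0, led by Myl3, with Atp2a2 and Tpm3 at the lowest p-values) had scores from -0.24 to 0.25, and muscle fiber markers (8 tested, 5 below 0, led by Acta1, with Ttn and Casq1 at the lowest p-values) from -0.18 to 0.21. No marker of any list was at 0 counts in all 6 mice, and in none of the 11 lists did a gene pass an adjusted p of 0.05 in edgeR. The part of these cell types in the matrix values was not tested.

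**Figure D5:**
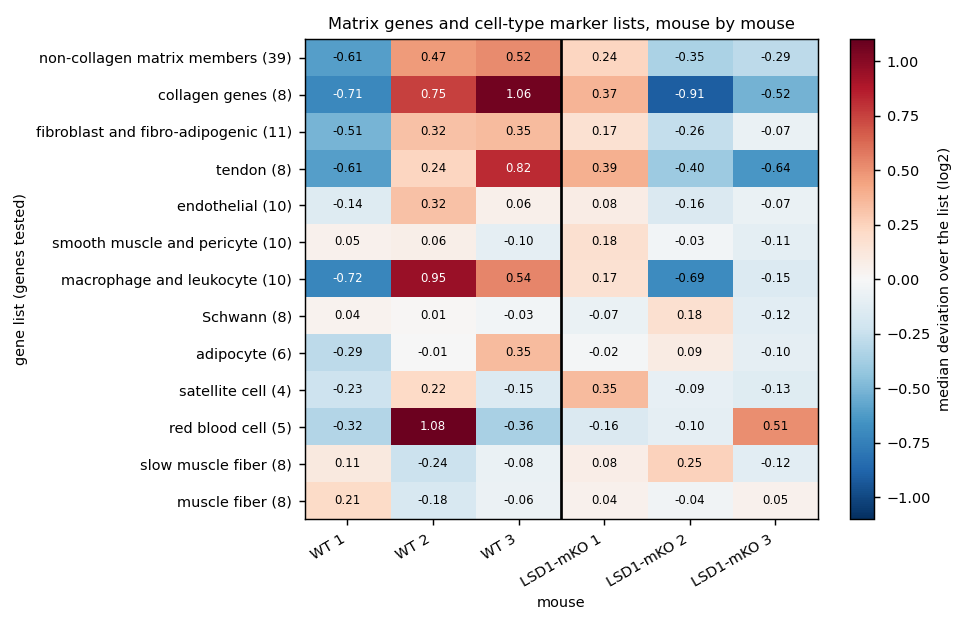
Each cell gives the median over a gene list of log2(CPM + 0.5) minus the 6-mouse mean of the gene, for 1 mouse, with the number of genes tested in parentheses and WT left of the line. The rows of collagen, fibroblast, tendon and leukocyte genes are blue in WT replicate 1 and red in WT replicates 2 and 3, as is the row of the matrix genes. The endothelial row has the same signs with smaller values, and the muscle fiber row does not have them.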

How the data were processed

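The authors deposited a table of estimated counts per gene for the 6 libraries. PolyA RNA was sequenced as 75-base single-end reads, and per the labels and methods the reads were aligned to mm10 with STAR. The counting tool and its annotation are not given in the sources used here. Between 8.33 and 9.94% of the values were not whole, so the counts were rounded. A second deposited table, of the authors' own comparisons, was not used. Genotypes were compared with edgeR 4.0.16 in R 4.3.3 (TMM scaling, low-count filter by genotype, quasi-likelihood test, Benjamini-Hochberg adjustment over 12828 genes). The SE was taken as the log2 fold change over the square root of its F statistic. DESeq2 1.42.0 and limma 3.58.1 (voom) were alternatives, as were other scalings, filters, a replicate block and leaving out each mouse. CPM are TMM-scaled. TPM used exon lengths of GENCODE vM21 (GRCm38), found for 99.68% of counts. Levels were compared between genes only as TPM.

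The 40 genes and the lists, of further matrix genes and of 11 cell types, were chosen with earlier results of these data known. Full values are given for those of the 40 genes with an unadjusted p under 0.05 or no overlap, for the most abundant gene of each role, and for Mmp and Timp genes. Tnc, Fn1, Eln, Kera, Aspn, Omd, Ctgf, Plod1, Ddr1, Pdgfra, Scx and Timp4 were added after their values were seen. The genes Ccn1, Ccn2 and Ccn5 of the wider list were matched under older symbols through RefSeq. No pair of libraries agreed within counting noise. Replicates were separate mice, and p-values measure the spread between 3 of them. Of the marker lists the 2 genes of lowest p and the most abundant gene are named, except 1 gene that is not reported here.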

Additional observations from a re-analysis of the deposited data

How the results depend on the processing

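Over 13 alternatives, the median log2 fold change of the 39 matrix genes ran from -0.60 to -0.15, and this median and that of each role moved by less than the spread between mice, but the median of the small leucine-rich proteoglycans turned from -0.20 to 0.13 without WT replicate 3. No matrix gene passed an adjusted p of 0.05 under any alternative. Members lower at an unadjusted p of 0.05 numbered 2 in the report (2.88% of all genes), 2 with DESeq2 (1.78%) and 1 with limma voom (2.81%). They numbered 4 with no filter on low counts (2.66%), 0 with the replicate block (1.78%), and 0 to 26 with 1 mouse left out (1.7 to 7.98%). All genes with an adjusted p under 0.05 numbered 1 higher and 1 lower in the report, 33 and 9 with DESeq2, 2 and 1 with limma voom, and 8 and 3 with no filter. The replicate block gave 1 and 0, with the call of Kdm1a lost, and leaving out 1 mouse gave 1 to 2 higher and 0 to 1 lower. The replicate numbers did not pair the mice (correlations of deviations -0.373, -0.0888 and -0.145). Of 507 refits of single matrix genes, 25 changed sign, in 15 genes. Dcn became 0.038 with voom and 0.02 with the replicate block, where Fbln5 became 0.0055. With 1 mouse left out, the range was -0.89 to 0.052 for Thbs1, -0.75 to 0.27 for Thbs2, -0.92 to 0.16 for Thbs4, -0.30 to 0.13 for Dcn, -0.52 to 0.27 for Fmod, -0.62 to 0.12 for Ogn, -0.11 to 0.35 for Prelp, -0.45 to 0.30 for Fbln1, -0.26 to 0.13 for Fbln5, -0.78 to 0.16 for Mfap4, -0.84 to 0.0041 for Lox, -0.49 to 0.15 for Loxl1, -0.59 to 0.025 for Timp2, -0.55 to 0.039 for Lamb1 and -0.28 to 0.032 for Lamc1. For each of these the highest value came without WT replicate 2 or WT replicate 3. Of the genes that kept their sign, the range was -0.99 to -0.50 for Sparc, -0.36 to -0.086 for Tnxb, -1.04 to -0.052 for Fbn1, -0.95 to -0.17 for Eln, -0.77 to -0.15 for Mfap5, -0.69 to -0.18 for Pcolce, -0.27 to -0.027 for Lama2, -0.43 to -0.024 for Lama4, -0.62 to -0.11 for Nid1, -0.55 to -0.017 for Nid2 and -0.40 to -0.12 for Hspg2, and the report gives it for the others. Counts were low for Mmp9, at 4 to 11 a mouse and left out of the main fit, and for Timp1, at 20 to 87 a mouse.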
